A study of Mus musculus with 9 samples.

Results

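The expression of 10 genes that encode inflammatory mediators was followed in mouse retinas after an intravitreal antibody to complement component C5. The genes were the chemokines Ccl2, Ccl3, Ccl5, Cxcl1 and Cxcl10, the cytokines Il1b, Il6 and Tnf, and the adhesion molecules Icam1 and Vcam1. Each was read from the probe set that named it and no other gene, and each had exactly 1 such probe set, so that the 10 genes made up 10 of the 25341 probe sets with a gene name. Expression was measured on 9 arrays, 3 for control retinas, 3 for retinas given 1 μg of anti-C5 antibody and 3 for retinas given 10 μg. The antibody, a chimera of chicken variable fragments and murine IgG1 directed to the MG4 domain of the mouse C5 β chain, was injected in 1 μL, and the retinas were taken 7 days later. All mice were male C57BL/6 (C57BL/6J in the methods), purchased at the age of 6 weeks, with normal eyes that received no laser lesion. The sources differ on the control injection, which is PBS in the sample labels and an IgG1 isotype antibody in the methods, and it is called control here. An array held the pooled RNA of 4 retinas from 4 mice. The sources do not say whether the pools of a group shared mice, so the p-values measure only the spread between pools.

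Chemokines are secreted proteins that draw leukocytes along a gradient, each acting on its own set of cells through receptors coupled to G proteins. Tumor necrosis factor and the interleukins 1β and 6 signal inflammation to neighbouring cells, and they induce ICAM-1 and VCAM-1 on endothelium, where these 2 proteins hold leukocytes that leave the blood. C5a, a fragment released when C5 is cleaved, is itself a leukocyte attractant, and many genes of this kind are switched on through the transcription factor NF-κB, which binds κB motifs in their promoters.

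Promoters are shown for the 3 members in which a κB motif was found, so that these 3 share it by choice. The choice of the 10 genes did not use the motif. RefSeq promoters (GRCm38.p6, 250 bases before to 50 bases after the start of the gene) were at hand for 7 of the 10 members. Both strands were searched for 1 form of the κB motif, 10 bases long. It was GGG, R, NN, YY and CC in that order, R being a purine, Y a pyrimidine and N any base. The search found it in 3 of the 7, Il6, Cxcl1 and Cxcl10, and in 8.46% of all 32817 promoters of the same length. Other forms of the motif were not searched for, so a promoter without a match may hold one. The 60 bases around a match are given 5′ to 3′ on the strand of the gene, with the match in capitals.
Il6 (chr5:30013045-30013104, plus strand): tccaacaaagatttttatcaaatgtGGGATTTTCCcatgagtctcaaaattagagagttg
Cxcl1 (chr5:90891149-90891208, plus strand): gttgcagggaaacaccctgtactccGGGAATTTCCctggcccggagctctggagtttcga
Cxcl10 (chr5:92348958-92349017, minus strand): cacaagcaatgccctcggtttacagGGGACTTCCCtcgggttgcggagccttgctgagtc
The matches began 44 bases before the start in Il6, 71 bases before it in Cxcl1 and 103 bases before it in Cxcl10. The Cxcl1 match overlapped another on the opposite strand, and the Cxcl10 match overlapped a second one, with a further match 159 bases before the start. TGANTCA, a motif of AP-1, lay in the promoters of Il6 and Cxcl10 and in 7.81% of all promoters. TATAAA lay in those of Il1b, Icam1 and Tnf and in 13.62% of all. A match is a description of the letters in the window. Binding was not measured.

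The values are log2 signals, so that a difference of 1 is a 2-fold difference, and levels of different genes cannot be set against each other. The 9 arrays correlated at 0.979 to 0.995. The tissue label held, since 8 rod photoreceptor genes averaged 12.06 to 12.11 on every array. The 10 members lay low in the range, 9 of them under the median of the named probe sets and 3, Cxcl1, Il1b and Il6, under the 25th percentile of 4.98, where a signal may hold little above background. In 5 members (Ccl3, Ccl5, Cxcl1, Il1b and Tnf) the same value appeared on more than 1 array, as it did in 53.5% of the named probe sets. Lens genes ranged from 6.31 to 9.12 and skeletal muscle genes from 5.57 to 8.02 between arrays, also within the control group. All 11 lens genes measured had lower means than control at both doses (median log2 changes of -1.14 at 10 μg and -1.13 at 1 μg), as did all 10 muscle genes (-0.40 and -0.73), and none of them passed the adjusted test. The part of these tissues in the members' values was not tested.

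None of the 10 genes passed the test at either dose. With limma, fitted on all 9 arrays and adjusted by Benjamini-Hochberg over the 25341 named probe sets at 0.05, 0 of 10 members passed at 10 μg against control, where 0.0197% of all named probe sets (5) did. At 1 μg against control 0 of 10 passed, with 0% of all. Without adjustment p was under 0.05 for 1 member at 10 μg, Vcam1, and for 1 member at 1 μg, Tnf. Among all named probe sets those shares were 17.4% at 10 μg and 9.04% at 1 μg, so that 1 of 10 members was under the background share at 10 μg and close to it at 1 μg. A change of more than 2-fold with an unadjusted p under 0.05 was seen in 0 members, against 1.13% of all probe sets at 10 μg and 0.679% at 1 μg.

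**Figure D1:**
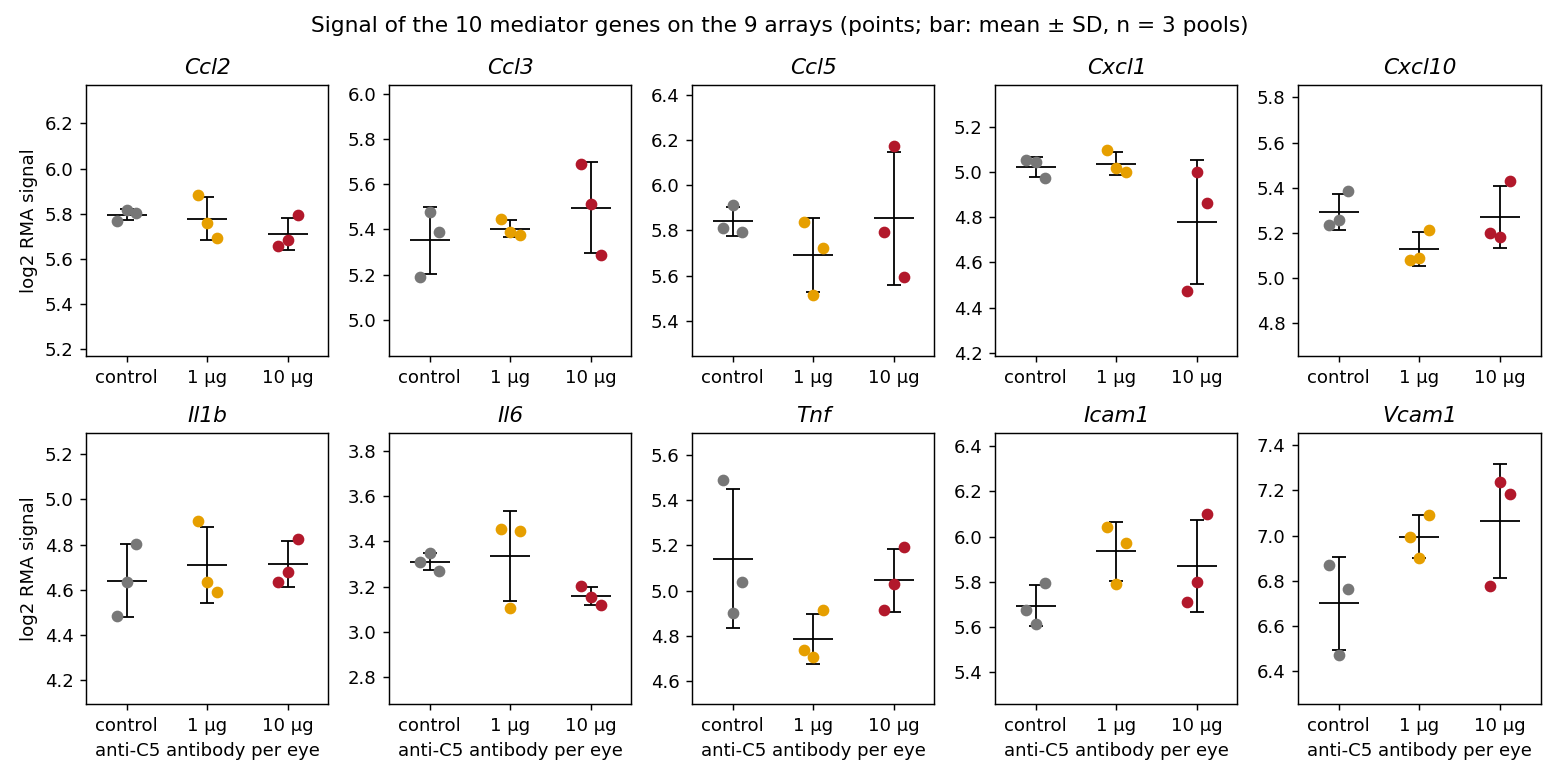
Log2 signal of the 10 mediator genes on each array, in 1 panel per gene, with the dose of anti-C5 antibody along the x axis, control at the left and 10 μg at the right. Points are arrays (pools of 4 retinas), bars the mean and SD of 3 arrays, and the groups overlap in most panels.

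Among the chemokines, Ccl2 encodes MCP-1, which draws monocytes through Ccr2. Its log2 signal was 5.77, 5.82 and 5.80 on the control arrays, 5.88, 5.76 and 5.69 at 1 μg, and 5.66, 5.68 and 5.79 at 10 μg. The groups overlapped, and Ccl2 had the smallest standard error of the 10 members. The log2 change was -0.08 (SE 0.0665) at 10 μg (limma adjusted p = 0.542), and -0.02 at 1 μg (limma adjusted p = 0.946). Ccl3 encodes the macrophage chemokine MIP-1α. It was at 5.19, 5.48 and 5.39 on the control arrays, at 5.45, 5.39 and 5.38 at 1 μg, and at 5.69, 5.51 and 5.29 at 10 μg. The groups overlapped, and the highest of the 9 values and one that lay under 2 of the controls both came from 10 μg arrays. Its log2 change was 0.14 (SE 0.110, limma adjusted p = 0.527) at 10 μg and 0.05 (limma adjusted p = 0.903) at 1 μg.

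Ccl5 encodes RANTES, a chemokine for T cells and monocytes. It measured 5.81, 5.91 and 5.79 on the control arrays, 5.84, 5.51 and 5.72 at 1 μg, and 5.79, 6.17 and 5.59 at 10 μg. Both the highest value and one of the lowest came from 10 μg arrays, and the 10 μg mean of 5.85 ± 0.29 was close to the control mean of 5.84 ± 0.06 (SD, n = 3 each). The log2 change was 0.01 (95% confidence interval -0.31 to 0.34) at 10 μg and -0.15 (-0.48 to 0.18) at 1 μg, with limma adjusted p-values of 0.972 and 0.759.

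Cxcl1, the mouse KC chemokine that draws neutrophils through Cxcr2, had values of 5.05, 5.04 and 4.97 in the control group, 5.10, 5.02 and 5.00 at 1 μg, and 4.47, 5.00 and 4.86 at 10 μg. All arrays but one lay between 4.86 and 5.10, and the exception was replicate 1 at 10 μg. The 10 μg change of -0.24 (SE 0.120, limma adjusted p = 0.338) stood at -0.09 without that array. At 1 μg it was 0.01 (limma adjusted p = 0.979). Cxcl10 is induced by interferon and draws activated T cells. It was read at 5.24, 5.26 and 5.39 on control arrays, 5.08, 5.09 and 5.21 on 1 μg arrays, and 5.20, 5.18 and 5.43 on 10 μg arrays. Here the 3 arrays at 1 μg all lay below the 3 controls, while those at 10 μg lay on both sides of them. Among all named probe sets, 2.45% had every 1 μg array below every control. The log2 change of Cxcl10 was -0.17 (SE 0.0834, unadjusted p = 0.0799, adjusted p = 0.588 from limma) at 1 μg and -0.02 (adjusted p = 0.907) at 10 μg.

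Of the cytokines, Il1b encodes interleukin 1β, which is made as a precursor and cut by caspase-1. Its signal was 4.48, 4.63 and 4.80 on control arrays, 4.90, 4.63 and 4.59 at 1 μg, and 4.63, 4.68 and 4.83 at 10 μg. The control spread alone (0.16, SD) exceeded both changes, each 0.07 on the log2 scale, with limma adjusted p-values of 0.762 at 10 μg and 0.865 at 1 μg. Il6, an inducer of the acute-phase response that signals through gp130, gave 3.31, 3.35 and 3.27 in control retinas, 3.45, 3.10 and 3.44 at 1 μg, and 3.20, 3.15 and 3.12 at 10 μg. Every 10 μg array was below every control array, as in 8.51% of all named probe sets, and the 1 μg arrays held both the highest values and the lowest. The log2 change was -0.15 (SE 0.0939, 95% confidence interval -0.37 to 0.06) at 10 μg and 0.03 at 1 μg, with limma adjusted p-values of 0.442 and 0.947.

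Tnf encodes tumor necrosis factor. Its log2 signal was 5.49, 4.90 and 5.04 on the control arrays, 4.74, 4.71 and 4.91 at 1 μg, and 4.91, 5.03 and 5.19 at 10 μg. Control replicate 1 was the highest of the 9, and 1 array at 1 μg reached the range of the other two controls. The 1 μg values, control replicate 2 and 10 μg replicate 1 lay under the 25th percentile of 4.98, where a signal may hold little above background. The change at 1 μg was -0.36 (0.781-fold, 95% confidence interval 0.618 to 0.988), and its limma p was 0.0413 before adjustment and 0.550 after. Without control replicate 1 it was -0.18 (limma adjusted p = 0.869), and the 10 μg change of -0.10 became 0.08. Control replicate 1 was also the array with the highest skeletal muscle signal, 1.42 above the control mean over 10 genes, against -1.03 and -0.39 on the other two controls. The part of muscle RNA in the Tnf value was not tested.

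The 2 adhesion molecules had higher group means than control at both doses, but neither passed the test. ICAM-1 is an immunoglobulin-family protein on endothelium and other cells that binds the leukocyte β2 integrins. Icam1 was at 5.68, 5.61 and 5.79 in control retinas, at 6.04, 5.79 and 5.97 at 1 μg, and at 5.71, 5.80 and 6.10 at 10 μg. The groups overlapped at both doses, and only 1 array at 10 μg stood clear of the controls by more than 0.1. The log2 change was 0.17 (SE 0.112, limma adjusted p = 0.456) at 10 μg and 0.24 (SE 0.112, limma adjusted p = 0.568) at 1 μg. Without replicate 3 at 10 μg the 10 μg change was 0.06.

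VCAM-1 binds the α4β1 integrin of monocytes and lymphocytes. Vcam1 measured 6.87, 6.47 and 6.76 in control retinas, 7.00, 6.90 and 7.09 at 1 μg, and 6.78, 7.24 and 7.18 at 10 μg. All 3 arrays at 1 μg were above all 3 controls, as in 12.5% of all named probe sets, and at 10 μg 1 array lay inside the control range. Vcam1 had the largest change of the 10 genes at 10 μg, 0.36 on the log2 scale (1.29-fold, 95% confidence interval 1.03 to 1.61), and its limma p was 0.0316 before adjustment and 0.236 after. The change at 1 μg was 0.29 (1.23-fold, limma adjusted p = 0.579). Left-out arrays moved the 10 μg change between 0.25 and 0.51, the highest value being that without replicate 1 at 10 μg (limma adjusted p = 0.106). No member had every 10 μg array above every control, a pattern of 14.3% of all named probe sets.

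**Figure D2:**
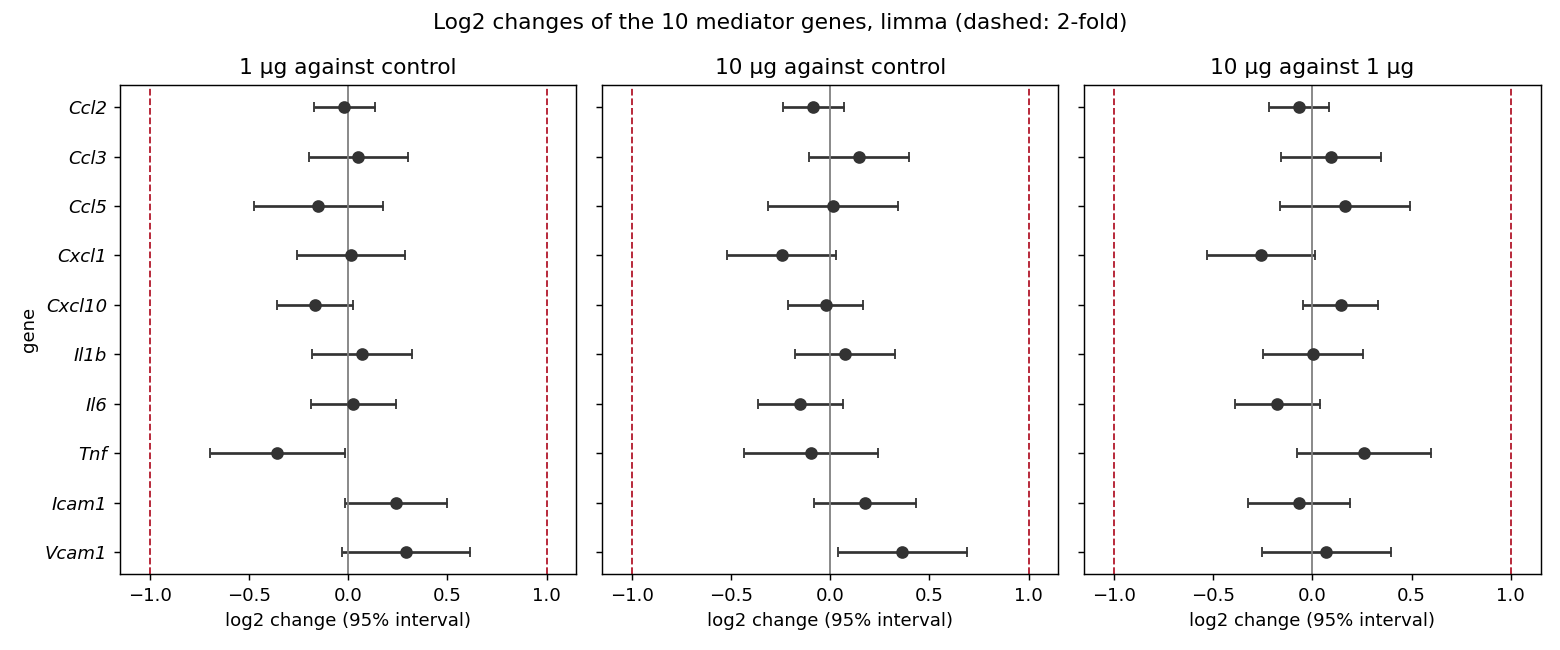
Log2 change of each mediator gene at 1 μg and at 10 μg against control (x axis), with genes down the page and 95% confidence intervals from limma as bars. The interval lies above 0 only for Vcam1 at 10 μg and below 0 only for Tnf at 1 μg, both before adjustment.

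Taken as a group, the genes did not lean to one side. At 10 μg 5 members had means above control and 5 below, with a median log2 change of -0.01, against 0.02 over all named probe sets, of which 55.7% were above. At 1 μg 6 were above and 4 below, with a median of 0.02, against 0.04 over all, of which 62.8% were above. The median size of the change, whatever its sign, was 0.12 for members and 0.11 for all probe sets at 10 μg, and 0.11 and 0.08 at 1 μg. For all 10 members, in each of the 3 comparisons, the 95% interval of the change in signal lay within a 2-fold change in either direction, as it did for 96.3% of all probe sets at 10 μg and 97.4% at 1 μg. No background level was at hand, so such an interval describes the signal and does not bound the change in transcript. This limit weighs most for Cxcl1, Il1b and Il6, whose signals may hold little above background, and for Tnf, whose 1 μg values lay equally low. Smaller changes were less well resolved in all members, since the median half-width of the interval was 0.25 for the members and 0.21 for all probe sets.

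**Figure D3:**
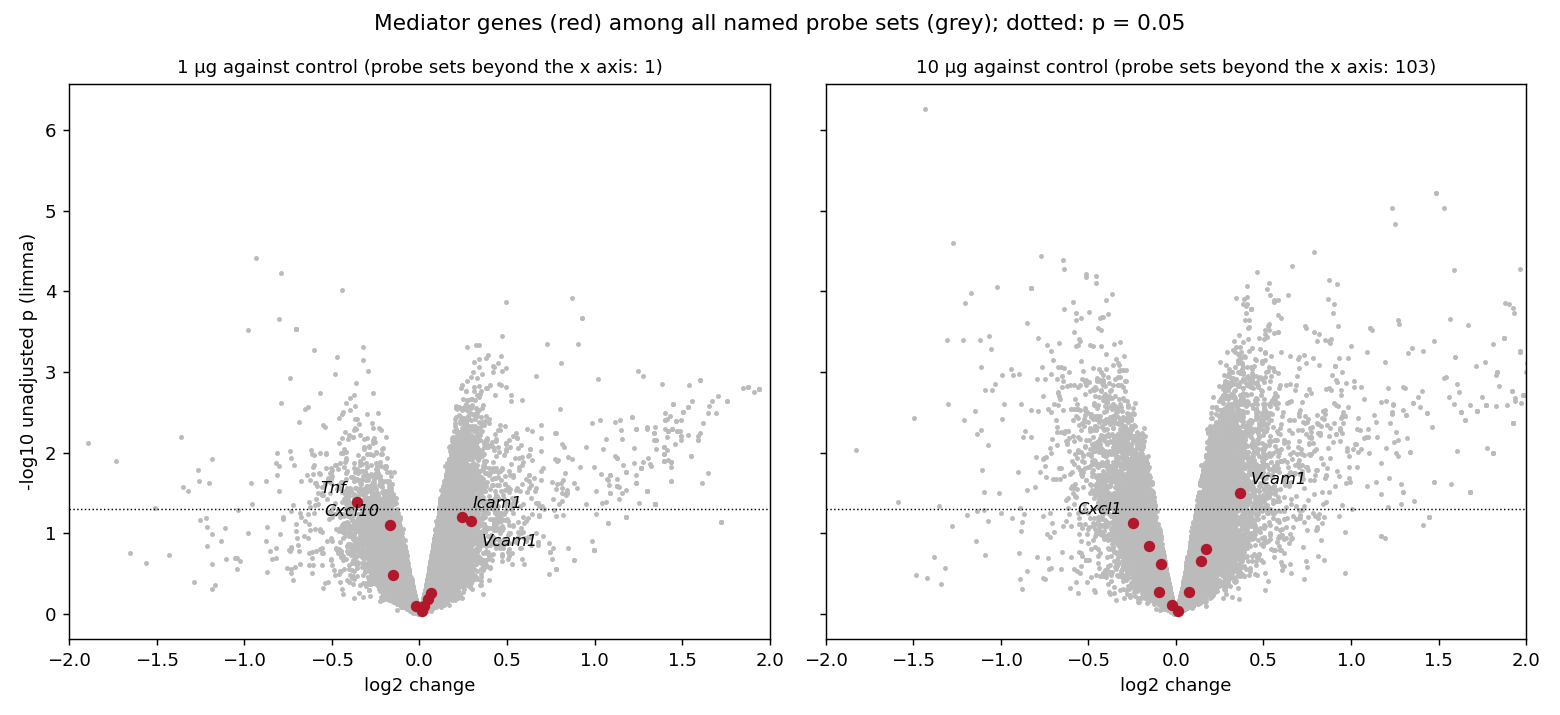
Log2 change (x axis) against −log10 of the unadjusted limma p (y axis) for all named probe sets (grey) and the mediator genes (red), at 1 μg and at 10 μg against control. Above the dotted line, which marks the threshold of 0.05, lie Tnf at 1 μg and Vcam1 at 10 μg.

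Between the doses, 0 of 10 members passed the adjusted test, as did 0% of all named probe sets, and 0 members had an unadjusted p under 0.05, against 10.4% of all. In 0 members did the 10 μg arrays lie wholly above those at 1 μg (4.48% of all) or wholly below them (9.44%). The largest differences of 10 μg minus 1 μg were -0.26 for Cxcl1 (unadjusted p = 0.0615, adjusted p = 0.498 from limma) and 0.26 for Tnf (adjusted p = 0.556). Cxcl1 averaged 4.78 ± 0.27 at 10 μg and 5.04 ± 0.05 at 1 μg (SD, n = 3 each). Tnf averaged 5.04 ± 0.14 at 10 μg and 4.79 ± 0.11 at 1 μg. Vcam1, with a difference of 0.07 (95% confidence interval -0.25 to 0.39), Icam1, with -0.07 (-0.32 to 0.19), and Il1b, with 0.00 (-0.25 to 0.26), had the highest adjusted p-values, together with Ccl3 at 0.09. Both doses were set against the same control arrays, so the values at the 2 doses are not independent.

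No array carried high values of all mediators. Replicate 1 at 1 μg was the highest of the 9 arrays for 4 members, Ccl2, Cxcl1, Il1b and Il6, and replicate 2 at 1 μg the lowest for 3, Ccl5, Il6 and Tnf. Replicate 1 at 1 μg also had the highest median over all probe sets, 6.04, against 5.88 to 5.95 on the other arrays. High values on that array were thus not particular to the mediators. The part of this offset in the members' values was not tested. Averaged over the 10 members, the deviation from the control mean was 0.01, -0.03 and 0.02 on the control arrays, 0.07, -0.09 and 0.02 at 1 μg, and -0.07, 0.07 and 0.06 at 10 μg. Over Icam1 and Vcam1 alone it was 0.08, -0.15 and 0.08 in control retinas, 0.32, 0.15 and 0.33 at 1 μg, and 0.05, 0.32 and 0.44 at 10 μg. The adhesion pair was above the control mean on all 6 arrays with antibody, and 1 of these, replicate 1 at 10 μg, lay inside the control range. How many of all named probe sets were above the control mean on all 6 was not computed.

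**Figure D4:**
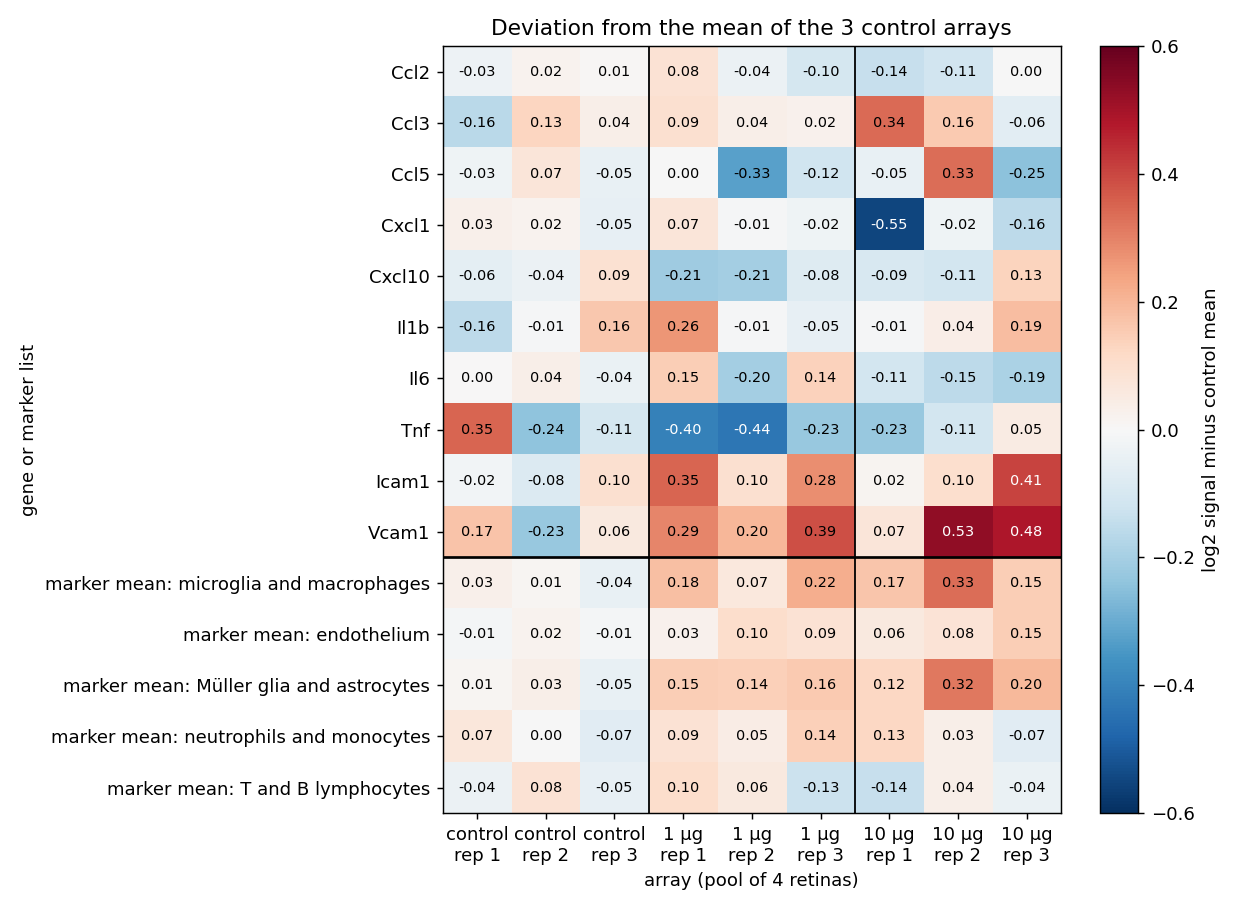
Deviation of each array from the mean of the control arrays, in log2 units (colour and printed number), for the mediator genes (upper rows) and for the mean of 5 marker lists (lower rows). Icam1 and Vcam1 are positive on all antibody arrays, as are the means of the microglia, endothelium and Müller glia lists. On replicate 1 at 10 μg Icam1 (0.02) and Vcam1 (0.07) lie inside the control range. The other members change sign between arrays. The share of all named probe sets that are positive on all antibody arrays was not computed.

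Marker lists were read for cell types that could carry these transcripts. Those of endothelium, microglia and Müller glia averaged above control on all antibody arrays, as the adhesion pair did, and that of retinal pigment epithelium did not. Within a dose, the order of the arrays matched that of the pair in part. The pair was at 0.32, 0.15 and 0.33 at 1 μg and at 0.05, 0.32 and 0.44 at 10 μg. The endothelium list had the same order at 10 μg (0.06, 0.08 and 0.15) but not at 1 μg (0.03, 0.10 and 0.09). The microglia list had it at 1 μg (0.18, 0.07 and 0.22) but not at 10 μg (0.17, 0.33 and 0.15). The Müller glia list also had it at 1 μg (0.15, 0.14 and 0.16) but not at 10 μg (0.12, 0.32 and 0.20). In bulk tissue, more cells of a type and more RNA per cell cannot be told apart. The endothelium list (11 genes) averaged 0.06 to 0.15 above the control mean at 10 μg and 0.03 to 0.10 above it at 1 μg, against -0.01 to 0.02 on the control arrays. Of its genes 9 were higher at 10 μg and 10 at 1 μg, and its 3 brightest, the VEGF receptors Kdr and Flt1 and the tight-junction gene Cldn5, had log2 changes of 0.19, 0.09 and 0.28 at 10 μg. The 2 genes of this list lower than control at 10 μg were Plvap (-0.20) and Slco1a4 (-0.03). The microglia and macrophage list (15 of 16 genes measured) averaged 0.15 to 0.33 at 10 μg and 0.07 to 0.22 at 1 μg, against -0.04 to 0.03 on the control arrays, with 11 genes higher at 10 μg and 13 at 1 μg. Its 3 brightest genes, Ly86, Cx3cr1 and C1qb, had log2 changes of 0.74, 0.17 and 0.46 at 10 μg. The 4 genes lower than control at 10 μg were Cd68 (-0.10), Tmem119 (-0.05), Aif1 (-0.05) and Adgre1 (-0.02). The Müller glia and astrocyte list (9 of 10 genes) averaged 0.12 to 0.32 at 10 μg and 0.14 to 0.16 at 1 μg, against -0.05 to 0.03 on the control arrays. Of its genes 8 were higher at 10 μg and 7 at 1 μg, with median log2 changes of 0.15 and 0.07. Gfap, named after its values were seen, had the largest changes, 0.74 at 10 μg and 0.78 at 1 μg, and weighed on these averages. Vim was lower than control at both doses (-0.19 at each), and Glul at 1 μg (-0.02). No gene of these 3 lists passed the adjusted test, the smallest adjusted p from limma being 0.0864. The retinal pigment epithelium list (10 genes) averaged -0.23, 0.38 and 0.51 on the 10 μg arrays, where the adhesion pair had 0.05, 0.32 and 0.44, with 8 genes higher and a median of 0.18. It averaged -0.17 to -0.07 at 1 μg, against -0.28 to 0.33 on the control arrays. No gene of this list passed the adjusted test. The part of any of these cells in the Vcam1 and Icam1 values was not tested.

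Markers of blood leukocytes, the cells these mediators recruit, were read in the same way. The neutrophil and monocyte list (9 genes) averaged -0.07 to 0.13 around the control mean at 10 μg and 0.05 to 0.14 at 1 μg, against -0.07 to 0.07 on the control arrays. T and B lymphocyte genes (8 of 10 measured) averaged -0.14 to 0.04 at 10 μg, -0.13 to 0.10 at 1 μg, against -0.05 to 0.08 on the control arrays. No gene of either list passed the adjusted test.

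The same families were then read beyond the 10 genes. No other gene measured, in 5 lists of chemokines, cytokines, adhesion molecules, receptors of the mediators, and NF-κB and innate sensor genes, passed the adjusted test at either dose. Before adjustment 23 of these 129 genes (17.8%) had a p under 0.05 at 10 μg and 14 (10.9%) at 1 μg, close to the 17.4% and 9.04% of all named probe sets. All arrays lay above all controls in 17 (13.2%) at 10 μg and 19 (14.7%) at 1 μg, and below them in 8 (6.20%) and 7 (5.43%), against 14.3% and 12.5% above and 8.51% and 2.45% below over all named probe sets. Of 26 other chemokines, 16 were above control at 10 μg and 10 below, with a median log2 change of 0.04. An unadjusted p under 0.05 was seen in 7 above control and 1 below. These 8 made up 30.8% of the list, and 6 (23.1%) had such a p at 1 μg. Among all named probe sets the shares were 17.4% and 9.04%. In each of the other lists the share was at most 17.4% at 10 μg and 12.1% at 1 μg. Cxcl16, a transmembrane chemokine that also acts as a scavenger receptor, averaged 8.29 ± 0.09 at 10 μg and 7.76 ± 0.11 in control retinas (SD, n = 3 each). Its log2 change was 0.53 (SE 0.0886, limma adjusted p = 0.0565) at 10 μg and 0.29 at 1 μg. Ccl9, a chemokine of myeloid cells known from mice, averaged 7.46 ± 0.09 at 10 μg and 6.98 ± 0.17 in control retinas, a change of 0.48 (limma adjusted p = 0.0648), and 0.31 at 1 μg. The B cell chemokine Cxcl13 differed from control by 0.40 at 10 μg (limma adjusted p = 0.161) and Cxcl14 by 0.21 (limma adjusted p = 0.133). Cxcl12, which retains stem cells and guides many cell types, differed by 0.28 at 1 μg (limma adjusted p = 0.506). For Cxcl16, Ccl9, Cxcl13, Cxcl12 and Cx3cl1, the last named after its values were seen, all arrays of both doses lay above all controls. Of the 26 chemokines, 6 (23.1%) had all arrays above all controls at 10 μg and 6 (23.1%) at 1 μg. The shares of all named probe sets were 14.3% and 12.5%. No share was computed for both doses together, which were set against the same controls.

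**Figure D5:**
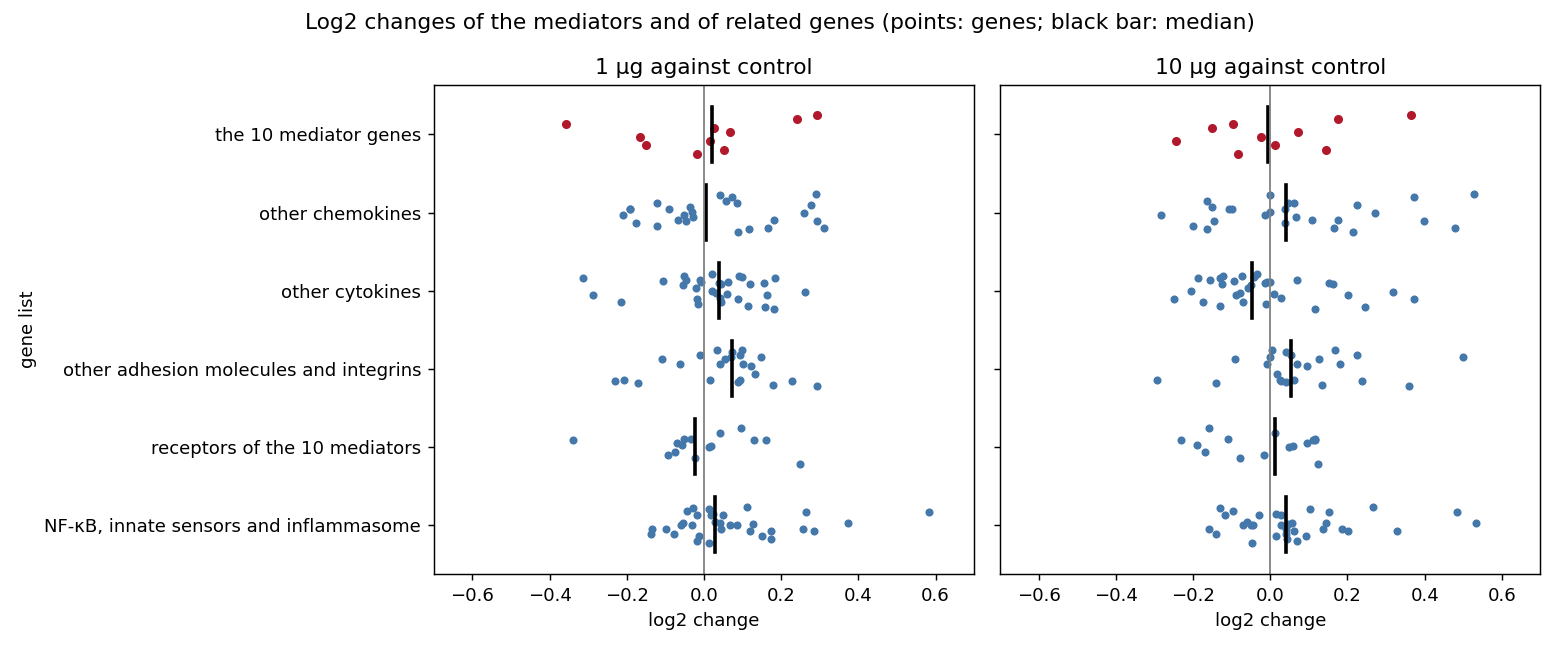
Log2 change against control (x axis) at 1 μg and at 10 μg for the mediator genes and 5 lists of related genes, with each point a gene and the black bar the median of its list. The medians of all lists lie between -0.05 and 0.07.

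Among 32 other cytokines, 10 were above control and 22 below at 10 μg, with a median of -0.05 and an unadjusted p under 0.05 in 4 above and 1 below, and 20 above and 12 below at 1 μg, with a median of 0.04. Tgfb3, a transforming growth factor β, differed by 0.37 at 10 μg (limma adjusted p = 0.161), the anti-inflammatory Il10 by 0.25, the alarmin Il33 by 0.16 and Il1a by 0.32. At 1 μg the smallest p-values were those of Il12b, at -0.22, and Csf2, at -0.29 (limma adjusted p = 0.551). Il10, Il1a and Il12b had mean signals of 3.72, 4.41 and 4.57. These lay under the 25th percentile of 4.98, where a signal may hold little above background. The list of 23 other adhesion molecules and integrins had 18 above and 5 below at 10 μg, with a median of 0.05 and an unadjusted p under 0.05 in 3 above and 1 below, and 17 above and 6 below at 1 μg, with a median of 0.07. Ninj1, an adhesion protein that also takes part in plasma membrane rupture, averaged 6.90 ± 0.09 at 10 μg and 6.54 ± 0.09 in control retinas, a change of 0.36 (limma adjusted p = 0.0688), and 0.29 at 1 μg. Cd34, a sialomucin of endothelium, differed by 0.50 at 10 μg (limma adjusted p = 0.126), Madcam1 by -0.29 and Alcam by 0.17. Itgb2, the β2 integrin chain that pairs to form the ICAM-1 receptors, differed by -0.23 at 1 μg (limma adjusted p = 0.576) and by 0.03 at 10 μg.

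The receptors through which the 10 mediators act likewise lay on both sides of control. Of 15 measured, 8 were above control and 7 below at 10 μg, with a median of 0.01 and an unadjusted p under 0.05 in 0 above and 1 below, and 7 above and 8 below at 1 μg, with a median of -0.02. Il1rap, the shared chain of interleukin 1 receptors, differed by -0.17 at 10 μg (limma adjusted p = 0.216), and the chemokine-binding Ackr1 by -0.19. These 2 of the 15 receptors had all 10 μg arrays below all controls, against 8.51% of all named probe sets. Il6st, which encodes gp130, differed by 0.11 at 10 μg, Cxcr1 by -0.16, and Il1r1 by 0.25 at 1 μg. Of 33 genes of NF-κB signalling, innate sensing and the inflammasome, 22 were above and 11 below at 10 μg, with a median of 0.04 and an unadjusted p under 0.05 in 5 above and 0 below, and 21 above and 12 below at 1 μg, with a median of 0.03. Tlr3, the endosomal sensor of double-stranded RNA, averaged 7.17 ± 0.12 at 10 μg and 6.64 ± 0.15 in control retinas, a change of 0.53 (limma adjusted p = 0.0773), and 0.37 at 1 μg. Cebpd, a transcription factor of the acute-phase response, differed by 0.48 at 10 μg and 0.58 at 1 μg (limma adjusted p = 0.506). All antibody arrays lay above all controls for Cebpd and Tlr3, and also for Tnfaip3 and Stat3, which were named after their values were seen. Of the 33 genes, 4 (12.1%) had all arrays above all controls at 10 μg and 6 (18.2%) at 1 μg. Among all named probe sets 14.3% and 12.5% did. The share with both doses above was not computed. Traf2, an adaptor of TNF receptors, differed by 0.20 at 10 μg, and Casp1, which cuts the interleukin 1β precursor, by 0.27. The mean signal of Casp1, 3.60, also lay under the 25th percentile of 4.98.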

How the data were processed

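The authors deposited log2 expression values of 9 Affymetrix Mouse Gene ST arrays, computed with Affymetrix Expression Console 1.1 by RMA, which corrects background, normalizes by quantiles and summarises probes by median polish. The methods name the Gene 1.0 ST array, whereas the probe set annotation is that of a later version. Quantile normalization gives the arrays like distributions and would hide a shift of all genes. No background level was at hand, and the number of arrays limits the precision. Of 41345 probe sets, 16004 have no gene symbol and were left out. No genome position of a probe set is given, since no source used here states the build.

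Groups were compared with limma 3.58.1 in R 4.3.3 (lmFit and eBayes, all 9 arrays, no block), with Benjamini-Hochberg adjustment over 25341 named probe sets. The steps were tested on simulated data. The 10 members, the related genes and the marker lists were chosen with earlier results of these data known, so no p over a list is given. All members are named. Of each related list the 4 genes of smallest p at 10 μg and the 2 at 1 μg are named, and of a marker list up to 3 of the brightest where a result turns on them. Every column of the table was mapped to a sample. Alternatives were other forms of the test, array weights, a replicate block, other scalings, filters, and each array left out in turn.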

Additional observations from a re-analysis of the deposited data

How the results depend on the processing

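No member passed the adjusted test under any alternative run. With an unadjusted p at 0.05 in place of the adjusted one, 1 member was called at 10 μg (Vcam1) and 1 at 1 μg (Tnf), and 23 (17.8%) and 14 (10.9%) of the 129 related genes, near the 17.4% and 9.04% of all named probe sets. Related genes called at 10 μg numbered 4 with an intensity trend in limma (Ccl9, Cxcl16, Ninj1 and Tlr3), 3 without dim probe sets (Ccl9, Cxcl16 and Ninj1), 1 after median centring (Ccl9), 1 after cyclic loess (Cxcl16), and 0 to 1 as each array was left out, the 1 being Cxcl16 without 1 μg replicate 1 or 2. The cause was not tested.

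Some members' changes turned their sign. With array weights the 1 μg changes were -0.0075 for Il1b and -0.044 for Il6, and the 10 μg change of Cxcl10 was 0.020 after median centring and 0.0043 after cyclic loess. As each array was left out, the 10 μg change ranged between -0.15 and 0.14 for Ccl5, -0.0054 and 0.15 for Il1b, -0.22 and 0.077 for Tnf, and -0.10 and 0.023 for Cxcl10. The 1 μg change ranged between -0.070 and 0.024 for Ccl2, -0.030 and 0.11 for Ccl3, -0.015 and 0.034 for Cxcl1, -0.028 and 0.15 for Il1b, and -0.034 and 0.14 for Il6. Between the doses it ranged between -0.0033 and 0.20 for Ccl3, -0.055 and 0.10 for Il1b, -0.18 and 0.014 for Icam1, and -0.014 and 0.22 for Vcam1.

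The labels do not say whether samples of the same replicate number were paired. Deviations of same-numbered arrays correlated at -0.20 to 0.13, and only 1 of 9 pairs was over 0.1. Those of differently numbered arrays correlated at -0.18 to 0.32. With so few arrays these values cannot exclude a pairing. With the replicate block 0 members passed, and Vcam1 at 10 μg had a limma adjusted p of 0.282. Leaving out dim probe sets removed Cxcl1, Il1b and Il6. Other probe sets of a member could not be tried, because each member had 1.

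With 3 pools in a group, the intervals leave changes well under 2-fold unresolved, and most members lie under the median signal. Protein levels, other times and the laser-treated eyes of the study were not analysed here.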
